A study of Homo sapiens with 4 samples.

Results

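The collagen, laminin and integrin genes, with the fibronectin gene *FN1*, were described here in H3K27ac ChIP-seq of the neuroblastoma cell line SK-N-BE(2)C. Members were chosen by gene symbol alone, as all protein-coding genes on chromosomes 1 to 22 named COL with a number, A and a number, LAMA, LAMB or LAMC with a number, or ITGA or ITGB with a number or letter, and *FN1*. This rule gave 81 of 19111 genes, of which 42 were collagen genes, 12 laminin genes, 18 integrin alpha genes and 8 integrin beta genes. H3K27ac, the acetylation of lysine 27 of histone H3, marks active promoters and enhancers. A member's window was its gene body plus 10 kb on either side, and it held 432 of the 63699 peaks of the control list and 290 of the 50119 peaks of the SNHG1-depletion list.

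The study compared 2 samples of control cells (sgCtrl, a non-targeting guide RNA, wildtype genotype) with 2 samples of cells that received guide RNAs against the long non-coding RNA gene *SNHG1* (sgSNHG1, labelled *SNHG1* knockout). Both kinds of cells were co-transfected with a construct for Cas9 and a pair of guide RNAs and with a pSurrogate reporter, selected in puromycin and grown from single sorted cells, so each group was of clonal origin, and which of the sgSNHG1 clones was assayed is not given in the sources used here. The authors combined both samples of a group before peaks were called, so 1 list per group exists here, the spread between replicates is unknown and no difference was tested. Every comparison is a description of 2 lists, and the intervals given (95%) cover counting error only.

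Collagens are triple-helical proteins of the extracellular matrix. Fibrillar collagens build fibres, type IV collagens and laminins build the basement membrane, and fibronectin is a fibrous adhesion protein. Integrins are receptors of 1 alpha and 1 beta chain that bind these proteins and join them to the actin cytoskeleton. In neuroblastoma, cells of the adrenergic state resemble sympathetic neuroblasts, while cells of the mesenchymal state express more matrix and adhesion genes. SK-N-BE(2)C belongs to the adrenergic kind. All 8 adrenergic marker genes looked at, among them *DBH*, *HAND2* and *ISL1*, held a peak in both lists. Of all 19111 genes, 14702 did too, so a peak in both lists does not by itself tell cell types apart. *DBH* had no peak at an own start in sgCtrl. Of 7 mesenchymal and fibroblast markers, *TWIST1*, *THY1* and *PDGFRB* held a peak in both lists, and *DCN*, *LUM*, *PDGFRA* and *PRRX1* held none in either. Of the markers of other cell types, 3 of 4 endothelial genes held a peak in both lists, with none at an own start. So did 2 of 4 epithelial genes, *CDH1* and *EPCAM*, both with peaks at their own starts in both lists, and 4 of 4 leukocyte genes, of which *CD14* had peaks at its own start. All samples were of the line SK-N-BE(2)C, and the origin of these peaks was not tested.

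The stretches just before the transcription start are shown for 6 members whose starts were under or next to a peak in at least 1 list and on which the results below turn. *COL4A1* shares its promoter with *COL4A2*, and *COL4A3* shares its promoter with *COL4A4*. *COL11A1* and *ITGAV* were lower in sgSNHG1, *ITGA6* had a peak only there, and *ITGB1* stayed high. The sequences are from RefSeq on GRCh38.p14, read 5′ to 3′ on the strand of the gene and ending 1 base before its most upstream RefSeq start. They run for 250 bases, or from the nearest other annotated gene. Capitals mark matches on either strand to any of 5 motifs. These are the GC box bound by SP1 proteins, spelled GGGCGG, and the box bound by NF-Y and spelled CCAAT. The third is the TATA box, here TATAAA. The others are CACGTG, the E-box bound by MYC proteins, and the site of AP-1 proteins, spelled TGANTCA.
COL4A1: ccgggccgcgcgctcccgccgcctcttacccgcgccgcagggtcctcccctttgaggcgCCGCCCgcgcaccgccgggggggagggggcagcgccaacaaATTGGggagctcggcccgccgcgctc
COL4A3: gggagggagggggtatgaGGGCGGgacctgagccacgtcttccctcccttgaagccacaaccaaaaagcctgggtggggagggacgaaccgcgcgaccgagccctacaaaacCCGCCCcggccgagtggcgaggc
COL11A1: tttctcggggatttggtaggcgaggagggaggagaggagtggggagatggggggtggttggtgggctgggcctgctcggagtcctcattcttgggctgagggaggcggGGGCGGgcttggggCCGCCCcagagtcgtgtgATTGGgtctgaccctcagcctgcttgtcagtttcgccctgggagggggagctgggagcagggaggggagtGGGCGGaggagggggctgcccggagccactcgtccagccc
ITGA6: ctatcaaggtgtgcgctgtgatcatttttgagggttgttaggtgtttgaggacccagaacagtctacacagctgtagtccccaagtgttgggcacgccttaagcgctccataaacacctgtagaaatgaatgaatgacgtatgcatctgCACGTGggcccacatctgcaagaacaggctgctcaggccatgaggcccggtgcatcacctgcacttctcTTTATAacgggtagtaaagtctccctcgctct
ITGAV: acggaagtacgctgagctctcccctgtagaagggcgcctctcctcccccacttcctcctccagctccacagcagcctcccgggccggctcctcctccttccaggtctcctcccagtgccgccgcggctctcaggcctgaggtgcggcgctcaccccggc
ITGB1: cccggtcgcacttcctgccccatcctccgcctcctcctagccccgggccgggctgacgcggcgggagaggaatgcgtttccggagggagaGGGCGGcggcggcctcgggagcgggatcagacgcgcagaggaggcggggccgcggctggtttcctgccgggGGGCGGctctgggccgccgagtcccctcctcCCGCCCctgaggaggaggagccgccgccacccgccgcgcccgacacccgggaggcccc

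These stretches lie at chr13:110307158-110307283 (minus strand, *COL4A1*), chr2:227164489-227164623 (plus, *COL4A3*), chr1:103108523-103108772 (minus, *COL11A1*), chr2:172427086-172427335 (plus, *ITGA6*), chr2:186589897-186590055 (plus, *ITGAV*) and chr10:32958231-32958480 (minus, *ITGB1*). The 126 bases upstream of *COL4A1*, which end at the RefSeq start of *COL4A2* but lie inside *COL4A2* in the GENCODE annotation used for windows and gene ends, were under a peak of both lists. The 135 bases upstream of *COL4A3* overlapped no peak, because the sgCtrl peak there began inside *COL4A3*. The stretches of *COL11A1* and *ITGAV* overlapped a peak of both lists. That of *ITGB1* overlapped only the sgSNHG1 peak, since its H3K27ac lay in peaks on either side of the start. The *ITGA6* stretch overlapped none, and the peak of that gene lay downstream of its start.

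*ITGA6* held a CACGTG and a TATAAA match, *COL11A1* and *ITGB1* held 3 GC boxes each, and *ITGAV* held none of the 5 motifs. Among 75 RefSeq promoters of 57 matched members, 41 (54.7%) held a GC box in the 250 bases before the start, against 54.6% of 20584 promoters of 14616 genes. CCAAT was in 21.3% of the members' promoters against 32.7%, TATAAA in 13.3% against 9.02%, TGANTCA in 4% against 5.3%, and CACGTG in 1.33%, the single *ITGA6* promoter, against 7.35%. A match is a run of letters and was not tested as a binding site. The promoters of members held a median of 12 CpG dinucleotides, against 17 in all promoters, with the same GC content within 2 percentage points (64% and 62.4%). Within the members, the median was 22 CpG in 33 promoters of genes with a start peak in both lists (range 1 to 40). It was 12 in 9 promoters of genes with one in sgCtrl only (2 to 22). It was also 12 in 5 promoters of genes with one in sgSNHG1 only (1 to 30), and 8 in 28 promoters of genes with none (0 to 38). The promoters of all genes were not split in this way, so whether the order is particular to the members was not tested.

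Most members carried H3K27ac in both cell populations. A peak in the window was found at 66 of 81 members in sgCtrl (81.5%, interval 71.7% to 88.4%; 81.2% of all genes) and at 63 in sgSNHG1 (77.8%, interval 67.6% to 85.5%; 79.1% of all genes). The members' windows were longer, with a median of 107 kb against 47.9 kb for all genes. In neither list was a peak found at 11 members (13.6%; 16.7% of all genes). These were *FN1*, 4 laminin genes (*LAMA1*, *LAMA2*, *LAMA3* and *LAMB4*), *ITGAM* of leukocytes, and the collagen genes *COL5A2*, *COL24A1*, *COL25A1*, *COL9A1* and *COL12A1*. *FN1* encodes fibronectin, and *LAMA1* the alpha chain of the laminin of early embryos. *COL25A1*, a transmembrane collagen of neurons, lies on the long arm of chromosome 4 (108808725 to 109302752), an arm with 1106 sgCtrl peaks and 452 sgSNHG1 peaks.

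The height of a peak was taken as its fold enrichment, which the authors' peak caller gave as the ratio of pooled fragments over the summit to those its model of the surroundings predicts (the local background). In both lists the tallest peaks of the members belonged to the same few adhesion receptors and 1 laminin chain. *ITGAV*, the alpha chain of several receptors for the RGD sequence of vitronectin and fibronectin, had 1 peak in its window, which covered its start and reached 13.7 in sgCtrl and 11.3 in sgSNHG1. *ITGA1*, a collagen-binding alpha chain, reached 13.2 and 11.4 at a peak in an intron, 12518 and 12585 bases downstream of a start. *ITGB1*, the beta chain that pairs with most matrix-binding alpha chains, reached 10.9 and 10.8 at own start peaks. These 2 peaks did not overlap, with summits at 32957917 in sgCtrl and 32958764 in sgSNHG1. *LAMC1*, the gamma chain shared by most laminins, reached 10.4 and 10.6. *COL6A6*, of the beaded filament collagens, reached 10.0 and 8.20 at a peak in an intron.

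By fold enrichment the highest peaks of these 5 genes lay between the 95.5th and 98.7th percentile of the sgCtrl list and between the 90.5th and 96.3rd of the sgSNHG1 list. The log2 ratio of sgSNHG1 to sgCtrl was -0.27 for *ITGAV* (interval -0.63 to 0.09) and -0.21 for *ITGA1* (interval -0.61 to 0.19), which both include 0. The direction of *ITGA1* turned when fragments were compared without dividing by the local background, with 92 at the summit in sgCtrl and 109 in sgSNHG1. The ratio was -0.02 for *ITGB1* (interval -0.29 to 0.26) and 0.02 for *LAMC1* (interval -0.28 to 0.32). *ITGB2*, the leukocyte beta chain, came next after *ITGA1*, *ITGAV*, *ITGB1* and *LAMC1* in sgSNHG1 with 9.12, against 7.69 in sgCtrl, but that peak lay over the start of the neighbouring gene *SLX9*. The highest peak lay at an own start of the member in 28 members in sgCtrl and 24 in sgSNHG1, and at the start of another gene alone in 13 and 13.

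**Figure D1:**
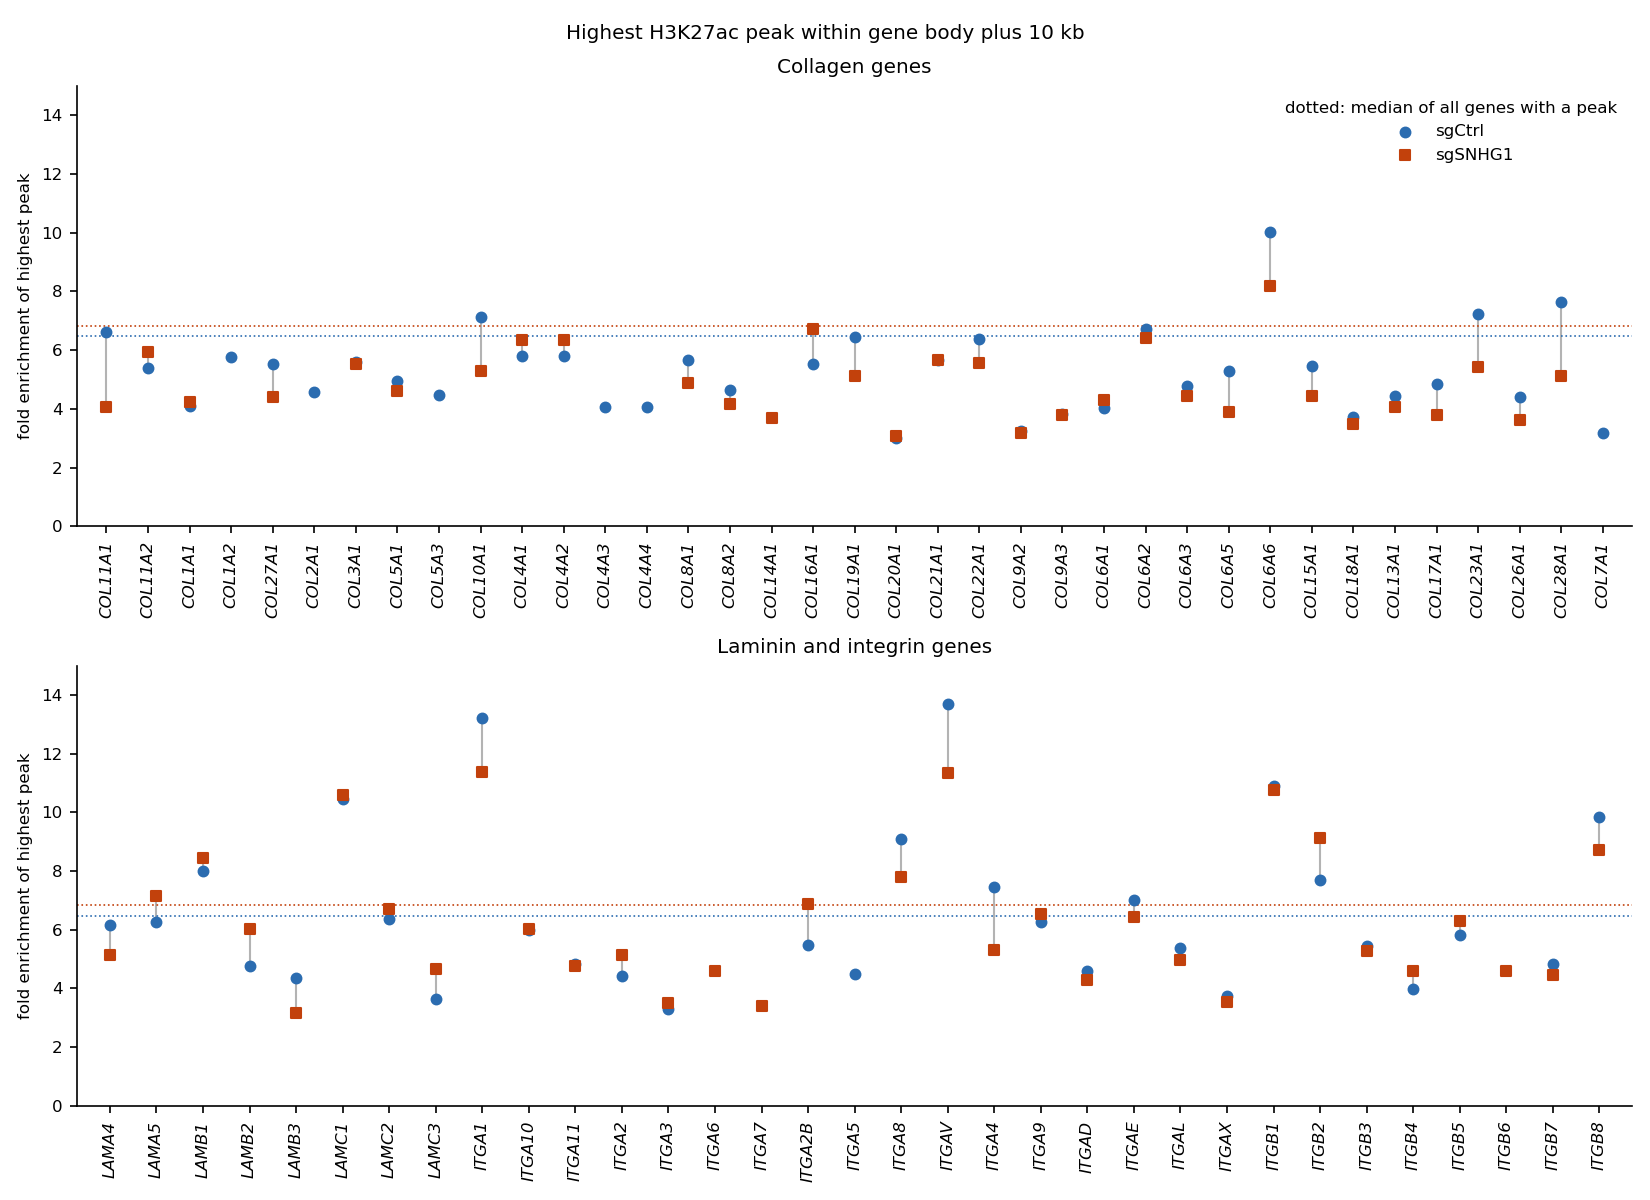
Fold enrichment (vertical axis) of the highest H3K27ac peak of each of the 70 members with a peak, collagen genes above and laminin and integrin genes below, in sgCtrl (circles) and sgSNHG1 (squares); there is 1 pooled list per group, so no error bars. Most points of a member lie close together and most collagen genes lie below the dotted medians of all genes (6.48 and 6.84), while ITGAV, ITGA1, ITGB1 and LAMC1 stand above 10.

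The median of the members' highest fold enrichment was 5.47 in sgCtrl and 5.13 in sgSNHG1, below the medians of all genes with a peak, 6.48 and 6.84. Over the 59 members with a peak in both lists the median log2 ratio was -0.08, with 38 members lower and 21 higher in sgSNHG1. Over 14702 genes it was 0.02, with 6766 lower and 7936 higher. Only *COL11A1* was more than 1.5-fold lower (1 of 59; 1.62% of all genes) and no member was more than 1.5-fold higher (0 of 59; 1.73% of all genes). These shares were near those of all genes. No member had a counting interval of this fold enrichment ratio that left out 0, unlike the ratio of fragments given further below. The highest peaks of the 2 lists overlapped in 45 of the 59 members, and in the others the ratio compares different peaks. Taken at the highest sgCtrl peak with an overlapping sgSNHG1 peak, the median was -0.10 over 57 members and -0.004 over all genes. By family the median log2 ratio was -0.12 in 30 collagen genes, of which 23 were lower, 0.07 in 8 laminin genes, of which 6 were higher, -0.09 in 14 integrin alpha genes and -0.02 in 7 integrin beta genes.

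Peaks within 1 kb of any annotated transcript start of a member, here called own start peaks, differed more often between the lists. They were found at 48 members in sgCtrl (59.3%; 65.7% of all genes) and at 41 in sgSNHG1 (50.6%; 64.6% of all genes). In both lists 37 members had one, in sgCtrl only 11, in sgSNHG1 only 4 and in neither 29. A start peak shared by a pair of genes, as at *COL4A3* and *COL4A4*, counts for each gene here and in the intervals. Of the 48 members with one in sgCtrl, 22.9% had none in sgSNHG1 (interval 13.3% to 36.5%; 7.00% of all genes). Of the 41 with one in sgSNHG1, 9.76% had none in sgCtrl (interval 3.86% to 22.5%; 5.46% of all genes). Collagen genes made up 10 of the 11 found in sgCtrl only, and the number of collagen genes with an own start peak was 25 in sgCtrl and 16 in sgSNHG1. It was 6 and 7 for laminin genes, 11 and 12 for integrin alpha genes and 6 and 6 for integrin beta genes. The sgCtrl list was also cut to its strongest peaks, to the size of the sgSNHG1 list. Own start peaks were then found at 41 members in each list. This cut removes sgCtrl peaks alone, so the sgCtrl number could only fall. The share of all genes under the same cut is not given here, so the equal numbers cannot be read as particular to the members.

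The start peaks seen in sgCtrl only had a −log10 p, the significance that the authors' peak caller gave to a peak, between 9.15 and 17.1. By fold enrichment 8 of the 11 members lay above the median of the sgCtrl list, 3.75. *COL1A2*, the second chain of type I collagen, the main collagen of bone and skin, had the tallest. Its peak (chromosome 7, 94394203 to 94394504) reached 5.77, with 33 fragments at the summit, and it was the single peak of that window. *COL1A1*, the first chain of type I collagen, had a start peak of fold enrichment 2.29 in sgCtrl and none in sgSNHG1. Its highest peaks, 4.10 in sgCtrl and 4.23 in sgSNHG1, were different peaks outside the gene, downstream of it in sgCtrl and upstream in sgSNHG1. At overlapping peaks the heights in sgCtrl and sgSNHG1 were 4.10 and 4.06 downstream, and 3.69 and 4.23 upstream. *COL3A1*, the type III collagen chain, had 1 peak in each list, 5.60 and 5.54, which lay downstream of the gene, and none at its start.

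Type V, VI, IV and other collagens held further start peaks of this kind. Of the minor fibrillar chain *COL5A3* the fold enrichment was 4.47 with 31 fragments, of *COL26A1* 4.24 with 24, of *COL6A3*, a chain of the beaded filament collagen VI, 3.78 with 31, and of *COL21A1* 4.07 with 23. *COL4A3* and *COL4A4*, the type IV chains of the kidney filter, share 1 such peak, at 227164647 to 227164926 of chromosome 2, which reached 4.07 with 23 fragments. The others were *COL22A1* (3.41) and *COL20A1* (3.02). *ITGA5*, the alpha chain of the fibronectin receptor, was the single integrin, with 4.20 and 26 fragments.

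Start peaks in sgSNHG1 only had a −log10 p between 7.47 and 11.2. *ITGA6*, an alpha chain of laminin receptors, had no peak at all in sgCtrl and 1 in sgSNHG1, at 172427604 to 172427888 of chromosome 2 in the first exon, which reached 4.60 with 25 fragments. *COL13A1*, a transmembrane collagen, had 3.80 with 30 fragments, *ITGA10*, a collagen-binding alpha chain of cartilage, 3.66 with 29, and *LAMB2*, a laminin beta chain of synapses and muscle, 2.92 with 30. A peak missing from 1 list did not pass the authors' threshold there, which is not absence of the mark.

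**Figure D2:**
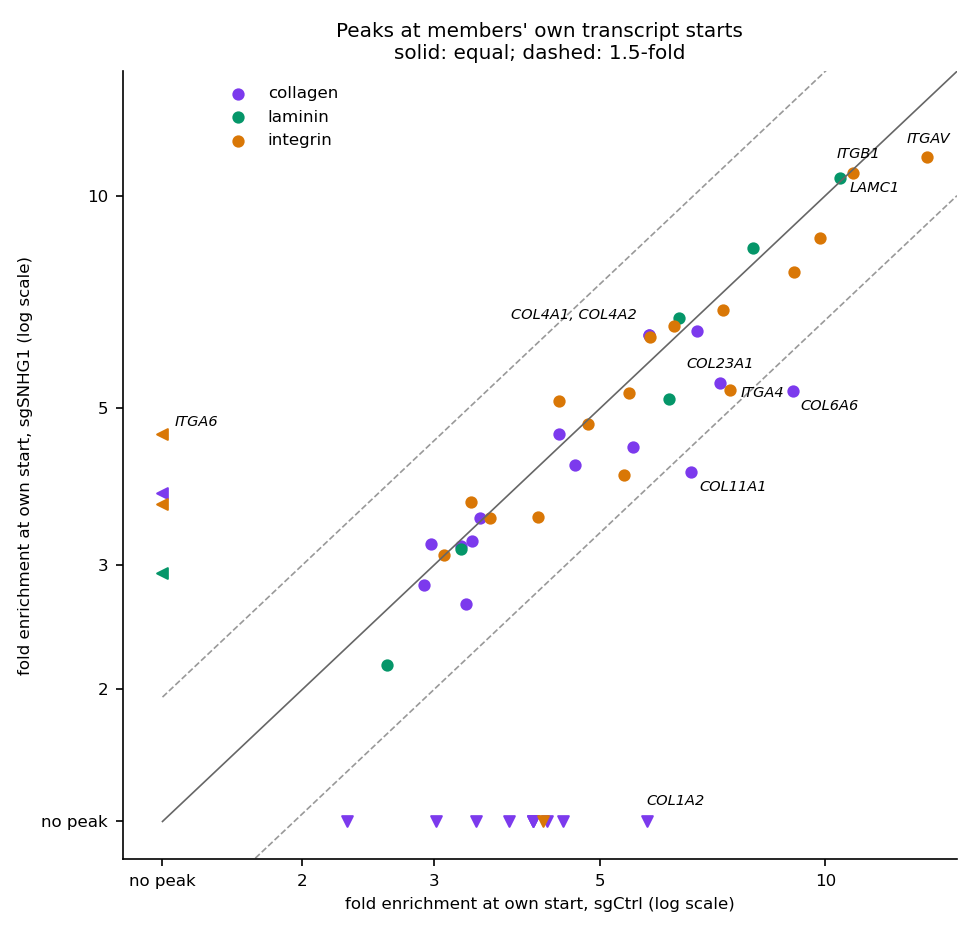
Fold enrichment of the highest own start peak of each member in sgCtrl (horizontal axis) and sgSNHG1 (vertical axis), both on log scales, with triangles for members with no such peak in 1 list; 37 points lie inside the plot, 11 on the lower edge and 4 on the left edge. All points above 10 (ITGAV, ITGB1, LAMC1) are present in both lists, the triangles lie below 6, and COL11A1 and COL6A6 lie beyond the dashed 1.5-fold line.

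Peaks were grouped by −log10 p to set members beside genes with start peaks of like significance. Of the members' start peaks, 22 of 48 in sgCtrl (45.8%) had a −log10 p under 20, against 26.3% of all genes. All of the 11 absent from sgSNHG1 were among these 22. Between 6 and 10, 5 of 5 members had none in sgSNHG1 (50.4% of 587 genes). Among these 5, *COL4A3* and *COL4A4* share the same peak, which is counted for each. Between 10 and 20, 6 of 17 had none (35.3%, interval 17.3% to 58.7%, against 19.1% of 2721 genes). From 20 upward 0 of 26 members were absent, where 1.52% of genes between 20 and 50 were. At starts seen in sgSNHG1, 2 of 4 and 2 of 21 members in the lowest classes had none in sgCtrl, against 33.9% and 15.6% of genes.

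**Figure D3:**
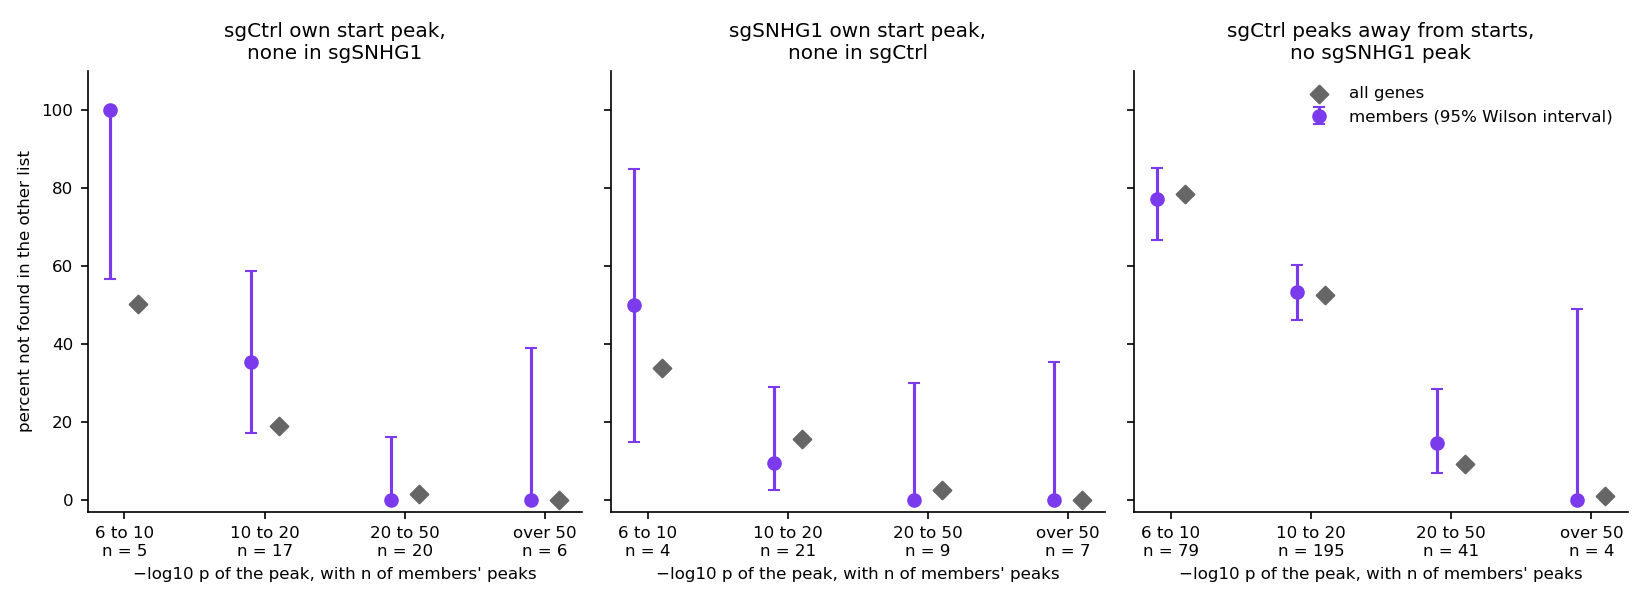
Percent of peaks of one list not found in the other (vertical axis) by class of −log10 p (horizontal axis), for members (circles, with 95% Wilson intervals) and all genes (diamonds). The 3 panels are for sgCtrl start peaks, sgSNHG1 start peaks and sgCtrl peaks away from starts. The printed n counts genes with a start peak in the left and middle panels and peaks in the right panel. Members lie above all genes in the 2 lowest classes of sgCtrl start peaks (100% against 50.4% and 35.3% against 19.1%), with wide intervals, and beside all genes in the lowest 2 classes of the right panel.

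Where both lists held an own start peak, most heights were alike. The highest own start peak was taken in each list separately, so a ratio can compare different peaks, as at *ITGB1* and *LAMA4*. Of 37 members, 24 were lower and 13 higher in sgSNHG1, with a median log2 ratio of -0.05 against 0.05 over 11677 genes. More than 1.5-fold lower were 2 of 37 (5.41%; 0.968% of all genes) and more than 1.5-fold higher 0 (2.30% of all genes). *COL6A6* was lowest, with 9.04 in sgCtrl and 5.28 in sgSNHG1, from 62 and 36 fragments, a log2 ratio of -0.78 (interval -1.37 to -0.18), the single one of the 37 intervals that left out 0. *COL11A1*, a fibrillar collagen of cartilage, had 1 peak in its window, which covered its start, with 6.62 and 4.07 from 38 and 22 fragments, a log2 ratio of -0.70 (interval -1.46 to 0.05). *ITGA4*, an alpha chain of receptors for fibronectin and VCAM1, had 7.47 and 5.30 (-0.49, interval -1.17 to 0.19), and *COL23A1*, a transmembrane collagen, 7.23 and 5.43 (-0.41, interval -0.94 to 0.11). Of the genes fixed by name, *LAMB1*, a beta chain of widespread laminins, had 8.01 and 8.43 at its start.

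The type IV collagen pair *COL4A1* and *COL4A2*, whose chains form the network of every basement membrane, had more fragments at its shared start in sgSNHG1. The genes run in opposite directions on chromosome 13, *COL4A1* from 110148963 to 110307157 and *COL4A2* from 110305812 to 110513209. The peak over their shared start had a fold enrichment of 5.81 in sgCtrl and 6.34 in sgSNHG1, a log2 ratio of 0.13 (interval -0.31 to 0.56), but 64 fragments at the summit in sgCtrl and 126 in sgSNHG1. The local background there was thus higher too in sgSNHG1. Relative to the lowest background of each list (4.89 and 4.66 fragments), a measure added after seeing the data, the log2 ratio of the highest pileup was 1.05 for *COL4A1* (interval 0.61 to 1.48). For *COL4A2* it was 0.82 (interval 0.41 to 1.23), but its tallest sgCtrl pileup, of 75 fragments, was at another peak near the far end of the gene, which had 68 fragments in sgSNHG1. For the 7 other genes with peaks in both lists that start within 1 Mb of *COL4A1*, the median was -0.01.

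Peak numbers pointed the same way in this pair. Both windows together held 15 peaks in sgCtrl and 20 in sgSNHG1, of which 12 sgSNHG1 peaks had no counterpart, and most of those lay in introns. Peaks covered 6040 bases in sgCtrl and 8826 in sgSNHG1, and the median pileup was 30 and 42.5 fragments. *COL4A2* alone had 13 and 16 peaks, a ratio of 1.23 (interval 0.592 to 2.56).

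Measured by fragments in this way, 3 members were more than 1.5-fold lower in sgSNHG1 (5.08%; 6.22% of all genes) and 4 were more than 1.5-fold higher (6.78%; 7.28% of all genes), both near the shares of all genes. The 4 were *COL4A1*, *COL4A2*, *COL16A1* and *LAMA4*, and the 3 were *COL11A1*, *COL9A3* and *LAMC3*. By this measure the counting interval lay wholly above 0 at the same 4 members. It lay wholly below 0 at 6, which were *COL9A3*, *LAMC3*, *COL6A2*, *COL6A6*, *ITGAV* and *ITGB4*. The share of all genes with such an interval is not given here. The members in these counts are named after their values were seen, and the same sgSNHG1 peak of 126 fragments counts for both *COL4A1* and *COL4A2*. *LAMA4*, the alpha chain of laminins of vessels, muscle and fat, had 3 peaks in sgCtrl with 28 to 40 fragments and 4 in sgSNHG1 with 25 to 74. The 3 that were shared lay near an alternative start far inside the gene, and the sgSNHG1 list alone held a peak at the upstream start, of 25 fragments. At the 3 shared peaks, in order along the chromosome, it had 35, 28 and 40 fragments in sgCtrl and 68, 74 and 56 in sgSNHG1, with fold enrichments of 5.01, 3.99 and 6.18 against 4.82, 5.16 and 4.64. Its log2 ratio of the tallest pileups was 0.96 (interval 0.40 to 1.51), that of fold enrichment was -0.26 (interval -0.82 to 0.29), and the median of 7 genes around it was 0.26. *LAMC3*, a laminin gamma chain, had 105 and 56 fragments at its tallest pileup, a log2 ratio of -0.84 (interval -1.30 to -0.37), but the 105 fragments were at a peak with no counterpart in sgSNHG1. The peak with its highest fold enrichment, 3.65 and 4.65, was a different one in sgCtrl and had 49 and 56 fragments. The direction of *LAMC3* thus depends on which peak is taken. *COL16A1* had its tallest peak at the start of *PEF1*.

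**Figure D4:**
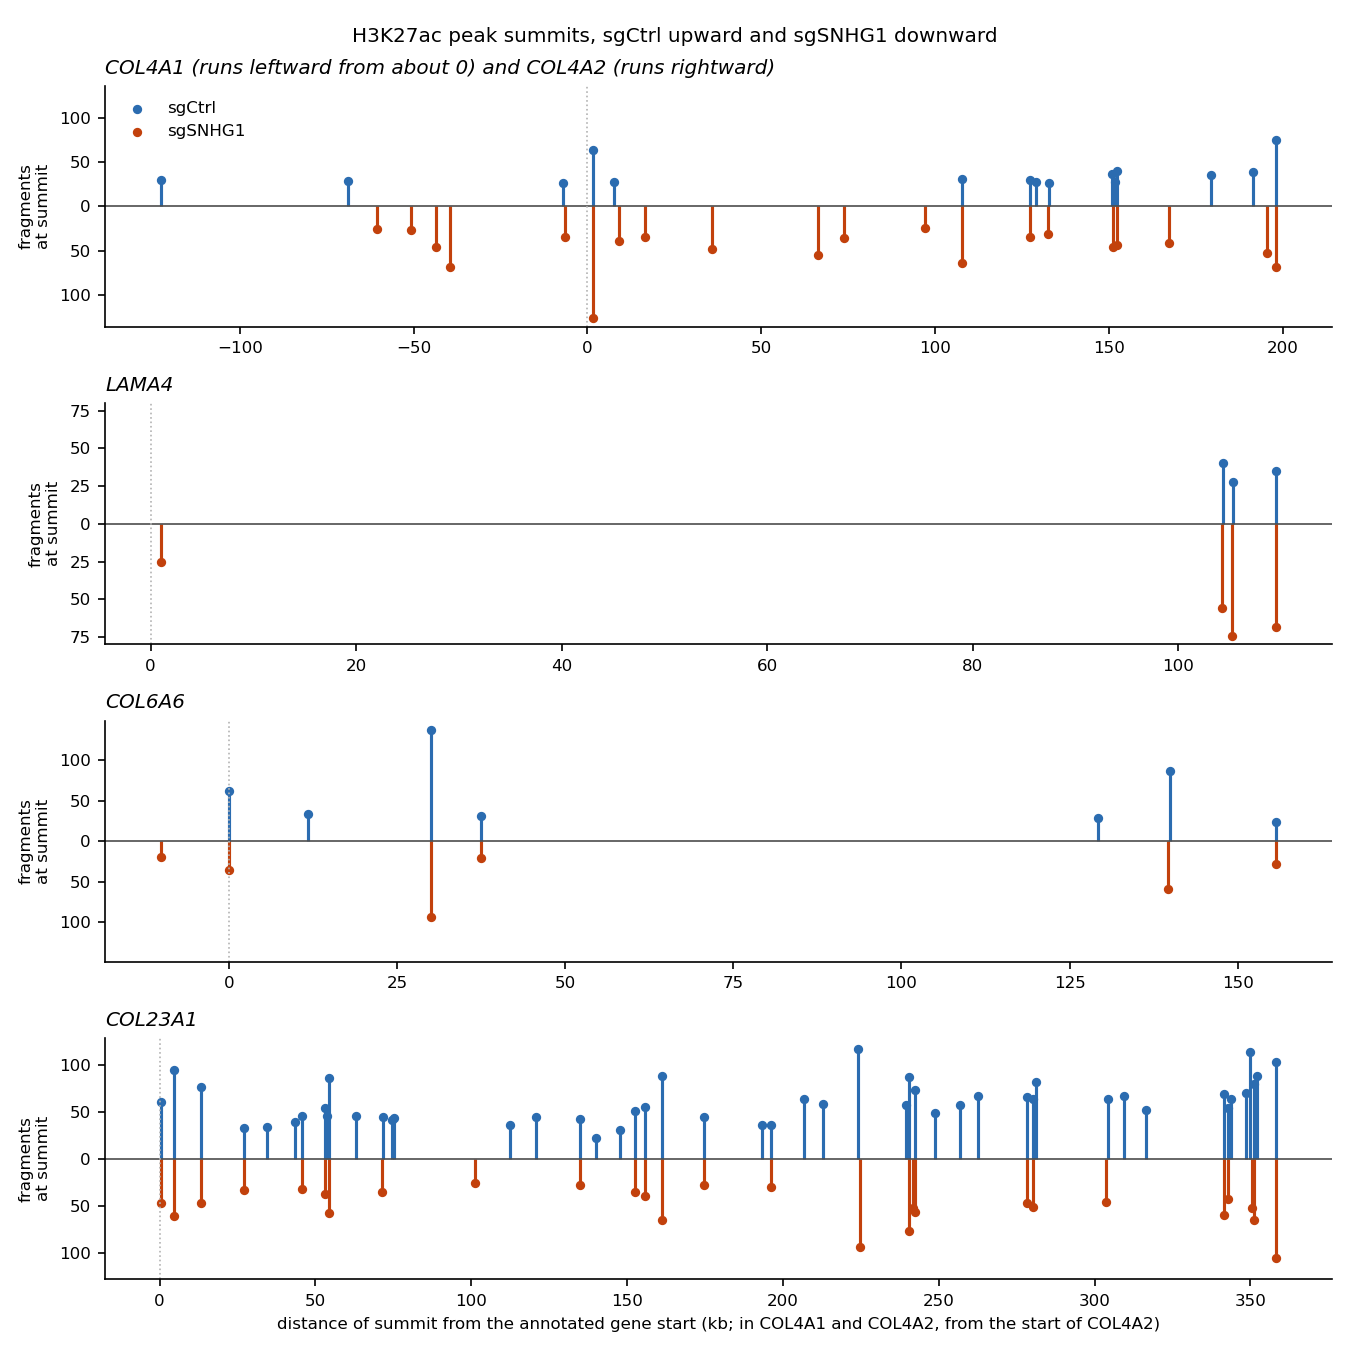
Fragments at the summit (vertical axis, sgCtrl upward and sgSNHG1 downward) of each peak in the windows of COL4A1 with COL4A2, LAMA4, COL6A6 and COL23A1, by distance from the annotated gene start in kb (horizontal axis). The shared start of COL4A1 and COL4A2 has 64 fragments in sgCtrl and 126 in sgSNHG1, and COL23A1 has 48 sgCtrl peaks over its length and 27 sgSNHG1 peaks.

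The number of peaks in the members' windows was 432 in sgCtrl and 290 in sgSNHG1, a ratio of 0.671 (interval 0.579 to 0.779), against 0.789 over the windows of all genes. Fewer peaks in sgSNHG1 were found at 46 of 70 members with a peak (65.7%), more at 11 (15.7%) and equal numbers at 13, while of 15923 genes with a peak 46.1% had fewer and 18.1% more. The members' windows were longer (median 107 kb against 47.9 kb) and held more sgCtrl peaks per 100 kb (3.64 against 2.89). The part that window length and peak number have in these shares was not tested. Promoter peaks, within 1 kb of any protein-coding start, numbered 113 and 92 (0.814, interval 0.618 to 1.07) and other peaks 319 and 198 (0.621, interval 0.520 to 0.741). For all genes the ratios were 0.973 and 0.694. By family the ratio was 0.642 for collagen genes (279 and 179 peaks, interval 0.532 to 0.774), 0.684 for laminin genes (57 and 39), 0.793 for integrin alpha genes (53 and 42) and 0.698 for integrin beta genes (43 and 30). When the sgCtrl list was cut to its strongest peaks so that both lists were of equal size, the ratio was 0.912 for members (interval 0.778 to 1.07) and 0.986 for all genes. The 2 lists differ in size for all genes alike, and the part that library depth has in this was not tested.

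**Figure D5:**
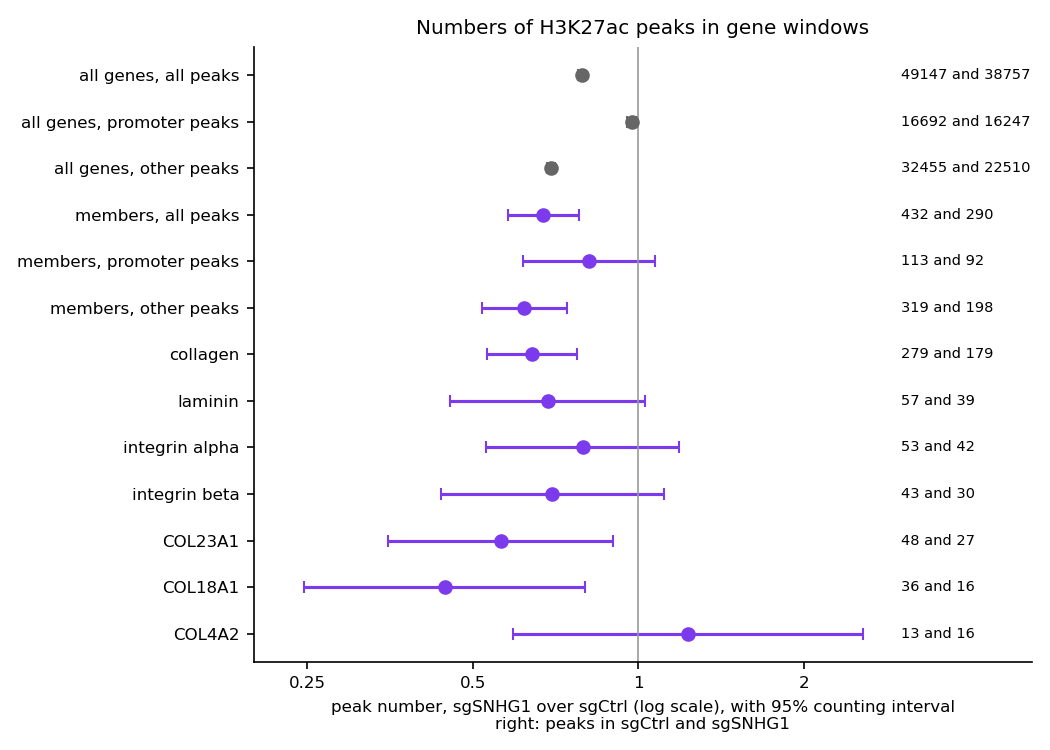
Ratio of sgSNHG1 to sgCtrl peak numbers (horizontal axis, log scale) in the windows of all genes and of members, by kind of peak, family and gene, with 95% counting intervals and the peak numbers of sgCtrl and sgSNHG1 at the right. The members' ratio of 0.671 lies below that of all genes, 0.789, COL18A1 is at 0.444, and COL4A2 lies above 1 with an interval that includes 1.

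A few long genes held many of these peaks. *COL23A1*, of the transmembrane collagens, had 48 peaks in sgCtrl and 27 in sgSNHG1, 46 and 26 of them in introns, a ratio of 0.563 (interval 0.351 to 0.901). Nearly all that sgSNHG1 kept were shared, with 26 of its 27 peaks overlapping an sgCtrl peak. *COL18A1*, a basement membrane collagen that is the source of endostatin, had 36 and 16, a ratio of 0.444 (interval 0.247 to 0.801), and of the 36 sgCtrl peaks 22 had no counterpart. Their heights were low, with medians of 2.42 and 2.76 and maxima of 3.72 and 3.50. *LAMA5*, the alpha chain of the main laminin of adult basement membranes, had 26 and 16, and its highest peak, 6.26 and 7.15, lay over the start of the gene *ADRM1*. Its own start peaks reached 2.59 and 2.16. *COL5A1*, a fibrillar chain that sets fibre width, had 21 and 12, *COL22A1* of tissue junctions 18 and 14, and *COL13A1* 11 and 3, with 1 shared. Without the 3 members with the most sgCtrl peaks the ratio was 0.717 (interval 0.606 to 0.850).

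A counterpart in the other list, with at least 1 base in common, was found for 52.8% of the members' sgCtrl peaks (interval 48.1% to 57.4%) and 79.3% of their sgSNHG1 peaks (interval 74.3% to 83.6%). Promoter peaks of sgCtrl with no counterpart numbered 33 of 113 (29.2%, interval 21.6% to 38.2%; 14.8% of all genes' promoter peaks), and other peaks 171 of 319 (53.6%, interval 48.1% to 59%; 48.5% of all). In sgSNHG1 they numbered 13 of 92 promoter peaks (14.1%; 13.3% of all) and 47 of 198 other peaks (23.7%; 23.3% of all). Only the share of sgCtrl promoter peaks lay apart from that of all genes. The sgCtrl peaks with no counterpart were lower and shorter than the shared ones, with a median fold enrichment of 2.80 against 3.49, 53 against 69 fragments and 294 against 506 bases. Away from starts, the share with no counterpart was near that of all genes in the classes that hold most peaks, with 77.2% against 78.5% between a −log10 p of 6 and 10, and 53.3% against 52.5% between 10 and 20.

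Most peaks of the members lay inside the genes. Of 432 sgCtrl peaks 229 (53%) had their summit in an intron away from any start, 85 lay at an own start, 28 at the start of another gene alone and 41 in a coding exon. Of 290 sgSNHG1 peaks these numbers were 141 (48.6%), 66, 26 and 22. In 2 windows at once were counted 4 sgCtrl peaks and 3 sgSNHG1 peaks, among them the shared starts of the type IV collagen pairs.

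Members with a peak in 1 list only were few. In sgCtrl only there were 7 of 66 members (10.6%; 5.23% of all genes), namely *COL1A2*, *COL5A3*, *COL4A3*, *COL4A4*, *ITGA5*, *COL2A1* and *COL7A1*. The peak of *COL2A1*, the cartilage collagen, lay over the start of *TMEM106C*, and the highest of *COL7A1*, the collagen of skin anchoring fibrils, over that of *PFKFB4*. In sgSNHG1 only there were 4 of 63 (6.35%; 2.71% of all genes), namely *ITGA6*, *ITGA7*, *ITGB6* and *COL14A1*. *ITGA7*, a laminin receptor chain of muscle, had 4 peaks, the highest over the start of *BLOC1S1* with a fold enrichment of 3.39. *ITGB6*, an epithelial beta chain, had 2 in introns, of 4.60 and 3.71, and *COL14A1*, a fibril-associated collagen, had 2, of 3.69 and 3.47. Among the 3 laminin-binding alpha chains, *ITGA3*, *ITGA6* and *ITGA7*, the number with a peak was 1 in sgCtrl and 3 in sgSNHG1. Of all genes 81.2% and 79.1% had one, and 3 genes are too few to set beside these shares. *ITGA7* had no own start peak in either list, and *ITGA6* had 1 peak of 25 fragments.

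The members were also set beside 56 other genes of matrix assembly and adhesion. In each list 48 of these 56 had a peak in the window, 47 of them in both. Start peaks were found at 44 in sgCtrl and 46 in sgSNHG1, where the members had 48 and 41 of 81. Of all genes 65.7% and 64.6% had one. The number of peaks was 357 and 256, a ratio of 0.717, and the median log2 ratio of the highest peak over 47 genes was 0.00, with 23 lower and 24 higher. Of 19 genes that modify or cross-link collagen, 17 and 18 had a start peak. By the highest peak in the window, *P4HA2*, a prolyl hydroxylase of collagen, reached 13.7 in sgCtrl and 15.1 in sgSNHG1, and *P4HA3* of the same family 7.39 and 4.19. *PLOD2*, a lysyl hydroxylase, had 6.11 in sgCtrl and no peak in sgSNHG1. Of 14 integrin adaptors, 13 and 14 had a start peak. The highest peak in the window, at a start or elsewhere, reached 15.9 and 15.2 at *LIMS1* and 8.90 and 14.3 at *TLN2*, a talin. More than 1.5-fold lower by the highest peak were 2 of the 47, *P4HA3* and *NTN4* (1.62% of all genes). More than 1.5-fold higher were also 2, *TLN2* and *THBS2* (1.73% of all genes). Of 8 basement membrane partners, 6 and 7 had a start peak. The highest peak of *NID1*, which links laminin to type IV collagen, reached 8.84 and 6.38, and that of *NTN4*, a netrin, 5.96 and 3.89. Of 15 other matrix glycoproteins, 8 and 7 had one, and 6, among them *TNC*, *POSTN* and *DCN*, had no peak in either list. *THBS2*, a thrombospondin, had no own start peak, and its highest peak reached 5.30 and 9.73, the largest rise of the 47, with a log2 ratio of 0.88 (interval 0.27 to 1.49).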

How the data were processed

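The 4 samples, 2 per group, were assayed for H3K27ac by ChIP-seq. The authors trimmed reads with cutadapt, aligned them to GRCh38 with BWA, pooled the samples within each group and ran MACS2 on the pool at a p-value of 1e-06, with duplicates kept. Versions and an input library are not given in the sources used here. The deposited lists hold, per peak, a fold enrichment (a ratio over local background), the −log10 of the p-value, and the summit's offset from the peak's start, all from the authors' peak caller. Depth per sample is unknown and no value per replicate is in the lists.

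Genes and starts came from GENCODE release 44. Summit pileups were recovered from each fold enrichment and −log10 p (pseudocount 1, Poisson, whole numbers within 0.001) for 99.93% of the sgCtrl and 99.95% of the sgSNHG1 peaks. Intervals of log2 ratios come from pileups, of ratios from peak numbers, and of shares from Wilson's method (95%). Shares of all genes include the members. Peaks overlapped by at least 1 base. Figures were drawn with matplotlib 3.10.9. Python 3.11.15 ran the computations with pandas 2.3.3, scipy 1.17.1 and numpy 2.4.6, and these were tested on simulated data. Members, lists and tests were chosen with earlier results of these data known, and the gene lists were written from general knowledge. Genes named were the 5 highest and the 5 with the most peaks per list, those past 1.5-fold, those with a peak or start peak in 1 list only (at most 8 per direction), and 15 fixed by name. Others were named after their values were seen.

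Alternatives were a −log10 p of at least 10, equal list sizes, other windows (no flanks, 50 kb), promoters within 3 kb, merging within 1 kb, other overlaps, and other measures of height.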

Additional observations from a re-analysis of the deposited data

How the results depend on the processing

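No paired analysis was possible because the authors called peaks on reads pooled over replicates, and leaving out a replicate could not be run either. The depth of the samples is unknown, and low peaks limit each statement on presence or absence. Of 295 values under other settings 263 stayed within their limits, 31 moved and 1 was labelled as reversed. A count of members stayed within its limit up to a factor of 1.5. These labels do not count every change of sign. *COL23A1* went from -0.41 to 0.077 with the gene body plus 50 kb. *ITGB2* went from 0.25 to -0.029 without flanks, and *COL5A1* from -0.11 to 0.13 by pileup over the lowest background. The cause of these changes was not tested except where the setting's construction gives it. Pileups over the lowest background, height classes, and the ratio without 3 members were added after seeing the data.

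The log2 ratio of *COL11A1* reversed to 0.059 with the gene body plus 50 kb, where another peak becomes the highest. Equal list sizes, which remove the weakest sgCtrl peaks, moved the ratio of peak numbers to 0.912, the shared share of sgCtrl peaks to 64.2% (promoter 80.9%, other 57.1%) and that of sgSNHG1 peaks to 71.7% (other 66.7%). With a −log10 p of at least 10, sgCtrl had 47.7% (other 38.3%). An overlap of 50% of both peaks gave 41.0% of sgCtrl peaks (promoter 55.8%, other 35.7%) and 60.3% of sgSNHG1 peaks (promoter 67.4%, other 57.1%). A peak within 1 kb gave 62.0% (promoter 78.8%, other 56.1%) and 84.5%. The gene body plus 50 kb gave 58.2% of sgCtrl peaks. Members more than 1.5-fold lower numbered 2 with 50 kb, 2 with the log2 ratio centred on all genes, and 3 by pileup over the list median or the lowest background. By both pileup measures 4 were higher. *ITGA1* moved from -0.21 to 0.33 and 0.32 by these measures.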
